A study of Mus musculus with 96 samples.

Results

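The genes described here are 10 secreted proteins, 5 chemokines (Ccl2, Ccl7, Cxcl1, Cxcl5 and Cxcl12) and 5 further factors often counted among the secretions of senescent cells (Il6, Csf1, Lif, Igfbp3 and Mmp3). They were chosen by symbol, and all 10 are among the 40202 genes of every count file. The study made RNA libraries from single cells of C10, a mouse lung line labelled as alveolar type II epithelium. There were 48 libraries from untreated cells (control; the labels give no treatment and name no vehicle) and 48 from cells given 10 nM RO-3306, an inhibitor of the mitotic kinase CDK1, for 36 h. No culture, passage or animal is named, so a treatment is 1 sample, no replicate stands behind any difference and no test was made.

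Chemokines are small proteins that draw white blood cells along a gradient. Ccl2 and Ccl7 attract monocytes through the receptor Ccr2, Cxcl1 and Cxcl5 attract neutrophils through Cxcr2, and Cxcl12 holds and attracts cells that carry Cxcr4. Many of these genes are switched on by the transcription factor NF-kB together with C/EBP and AP-1 factors, in stressed lung cells as well as in immune cells. Cells that have left the cell cycle for good can release a mix of such chemokines, the interleukin Il6, growth factors and matrix enzymes, known as the senescence-associated secretory phenotype.

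A cell was kept when its library held at least 50000 counts and 1000 genes with a count, which left 29 control and 37 RO-3306 cells. Kept libraries held 59979 to 6457215 counts in control (median 1753427) and 295005 to 5321880 in RO-3306 (median 2234309), summing to 66034079 and 92828839. Levels are CPM (counts scaled to a library total of 1e6) of these sums or of a single cell, and intervals are exact at the 95% level and cover counting error only. The letter in a cell's title, A to D, has no stated meaning, and kept cells in sets A, B, C and D numbered 10, 8, 6 and 5 in control and 10, 10, 11 and 6 in RO-3306. Of 8 alveolar type II markers, which make or handle surfactant, Sftpc, Sftpa1, Sftpd, Slc34a2 and Napsa had no count in any kept cell. Abca3 had 9.38 and 5.21 CPM in control and RO-3306, Lamp3 had 0.227 and 0.108 CPM, and Sftpb had a count in 1 RO-3306 cell. In the control and RO-3306 sums, the 6 endothelial markers together had 0.622 and 0.311 CPM and the 6 epithelial markers 1.78 and 0.978 CPM. The 8 fibroblast markers together had 2228 and 1100 CPM, with Lum and Thy1 at 0.

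In short, the chemokine messages were abundant and the other factors were scarce or not countable. The median cell had 4.67 times as much Ccl2 and 2.98 times as much Ccl7 after RO-3306, but the ratios of the summed counts were 1.66 and 1.05, neither past 2-fold, and the sign of the Ccl7 sum was not stable. Cxcl1 was found in a larger share of cells. Cxcl12 was 2.40-fold lower after RO-3306, a log2 ratio of -1.26 that shrank to -0.44 relative to genes of like message length. Cxcl5 was lower in the summed counts, with set B carrying that difference. Lif, Igfbp3 and Mmp3 came from a few cells, and Il6 and Csf1 could not be read from these files.

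Of the 10 members, 7 averaged 5 CPM or more over both groups, as did 9374 of all genes, and these are called measured. A member was counted as past the fold when the log2 ratio of RO-3306 over control, with 1 CPM added to both, was at least 1 or at most -1. Higher past the fold was 1 of the 7, Mmp3, and 12.2% of the 9374 genes were higher by that rule. Lower was 1 of the 7, Cxcl12, against 24.2% of all genes. With the same sign also required in all 4 lettered sets, 0 of the 7 were higher and 1 was lower, beside 7.23% and 6.43% of all genes. The members' counts are thus close to what the background gives. The median log2 ratio of the 7 was 0.07 and that of all genes was -0.22, and Mmp3 entered the 7 only through the group in which it is high. Scaling the sums by TMM or DESeq2 size factors would raise log2 ratios by 0.21 or 0.24, so negative ratios nearer to 0 than that have no settled sign. Of all genes past the fold, 33.4% were higher as scaled here, 45% with TMM, 46.5% with DESeq2 factors, 52.1% relative to genes of like mRNA length and 42.2% with no minimum level.

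**Figure D1:**
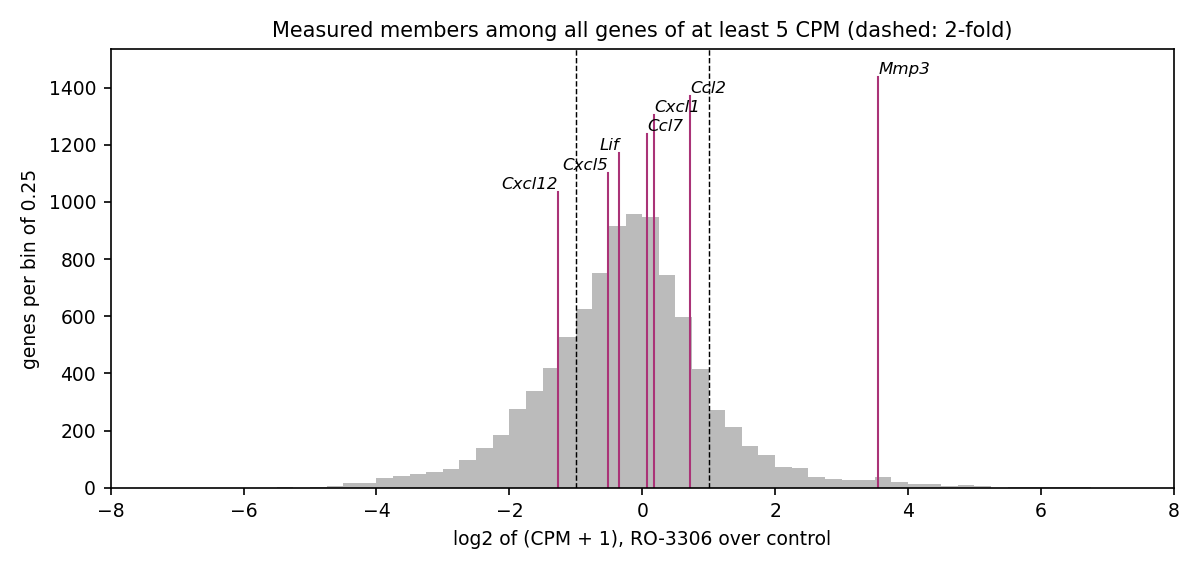
Distribution of the log2 ratio of RO-3306 over control (x axis, log2 of CPM + 1) over the 9374 genes of at least 5 CPM, as genes per bin (y axis), with the 7 measured members as vertical lines of arbitrary height and dashed lines at 2-fold. Cxcl12 at -1.26 and Mmp3 at 3.56 lie outside the dashed lines and the other members lie between them.

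Ccl2 (GRCm39 chromosome 11, 81926403 to 81928278, plus strand), the main monocyte attractant, had 1565 CPM in control (1556 to 1575) and 2591 CPM after RO-3306 (2581 to 2601). The per-cell level ran from 0 through a median of 396.5 to 9865 CPM in the 29 control cells. In the 37 RO-3306 cells it ran from 101.5 through a median of 1851 to 9967 CPM. The tops of the ranges were alike and the bottoms were not: 4 control cells had no Ccl2 count, and every RO-3306 cell had one. The level reached 1000 CPM in 8 of 29 control cells and in 30 of 37 after RO-3306.

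The summed Ccl2 ratio was 1.66 (1.64 to 1.67), or 0.73 on the log2 scale, and the ratio of the median cells was 4.67. The gap between these 2 ratios comes with the uneven spread of the control counts, of which cell A3 alone held 35.9%. In RO-3306 the top cell held 10.1%. The coefficient of variation over cells was 1.72 in control and 0.827 in RO-3306. This evenness is not particular to Ccl2, since 79.9% of the 710 genes averaging 300 CPM or more had a lower coefficient in RO-3306.

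Set A differed from the other sets in Ccl2. Its control cells summed to 2866 CPM and its RO-3306 cells to 2580 CPM, a log2 ratio of -0.15. In set B the sums were 1016 and 3140 CPM, in set C 403.6 and 2278 CPM, and in set D 390.6 and 2470 CPM, with log2 ratios of 1.63, 2.49 and 2.66. The RO-3306 sums were much alike in the 4 sets, and the control sums were not. Leaving out set A raised the log2 ratio to 1.72, past the fold, leaving out set B lowered it to 0.33, and leaving out the top cell of each group raised it to 1.14. The median cell of set A was nevertheless higher in RO-3306, at 1986 against 731.5 CPM.

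Ccl7 (chromosome 11, 81936538 to 81938351, plus strand), a second Ccr2 ligand, starts 8259 nt past the end of Ccl2. It had 1534 CPM in control and 1614 CPM after RO-3306, a log2 ratio of 0.07. Single cells ran from 0 through 597.1 to 10651 CPM in control and from 0 through 1781 to 6580 CPM in RO-3306, so the sums were nearly equal while the median cell was 2.98-fold higher. A count was found in 28 of 29 and 35 of 37 cells. The log2 ratio was -0.56 in set A, 0.86 in set B, 1.04 in set C and 0.49 in set D. As with Ccl2, cell A3 held the most control counts (27%), and the sign of the summed ratio turned without set B (-0.28) and also without set C or relative to genes of like length.

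**Figure D2:**
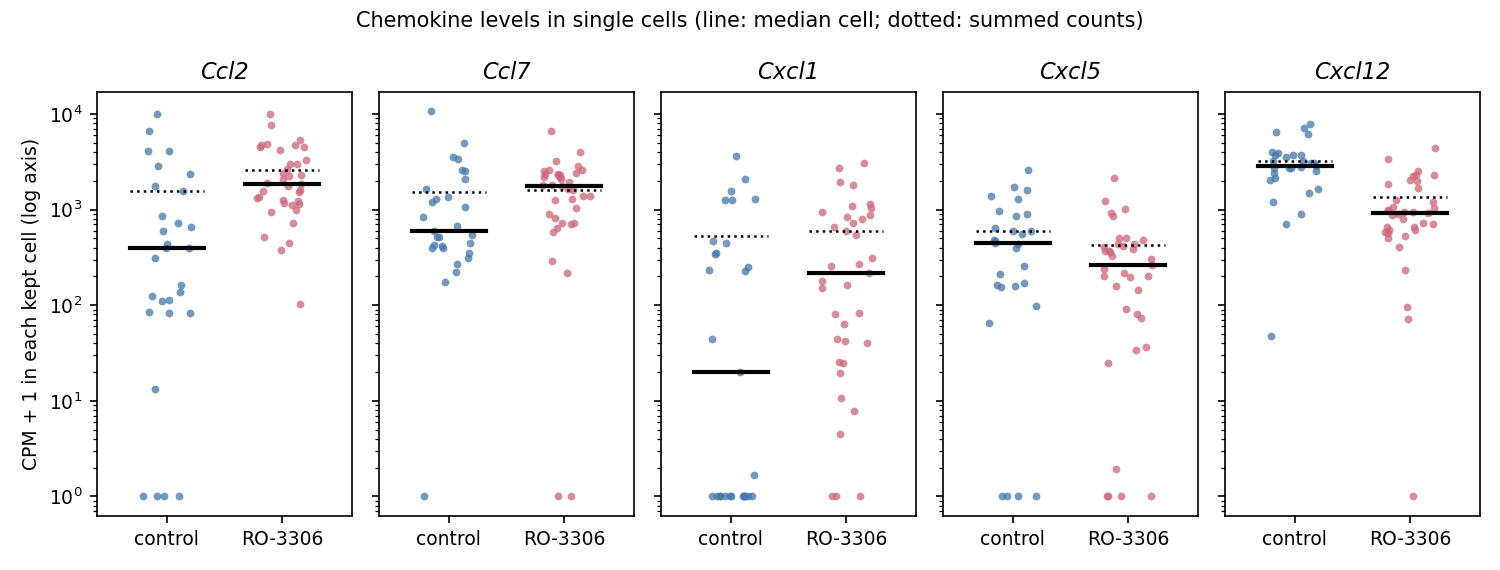
Level of 5 chemokines in each kept cell (y axis, CPM + 1, log axis) for 29 control and 37 RO-3306 cells, with a solid line at the median cell and a dotted line at the level of the summed counts; points at 1 have no count. The median Ccl2 cell is at 396.5 CPM in control and 1851 CPM after RO-3306, and the median Cxcl12 cell at 2870 and 926 CPM.

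Ccl2 and Ccl7 went together from cell to cell. Among the 3555 genes with a count in at least 50% of equally deep cells of each group, Ccl7 was the gene most like Ccl2, and Ccl2 the gene most like Ccl7, ranked by the lower of the groups' Spearman coefficients. The coefficient was 0.58 over 25 control cells and 0.68 over 34 RO-3306 cells, and 0.60 in both groups when taken within lettered sets. It is a description with no p, from cells that also share treatment and library preparation. Next to Ccl2 came Acta2, smooth muscle actin (0.47 and 0.47), and Cox17, a copper chaperone of the respiratory chain (0.49 and 0.47). Next to Ccl7 came B9d2, a protein of the cilium base (0.43 and 0.41), and Psmb4, a proteasome subunit (0.37 and 0.41).

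**Figure D3:**
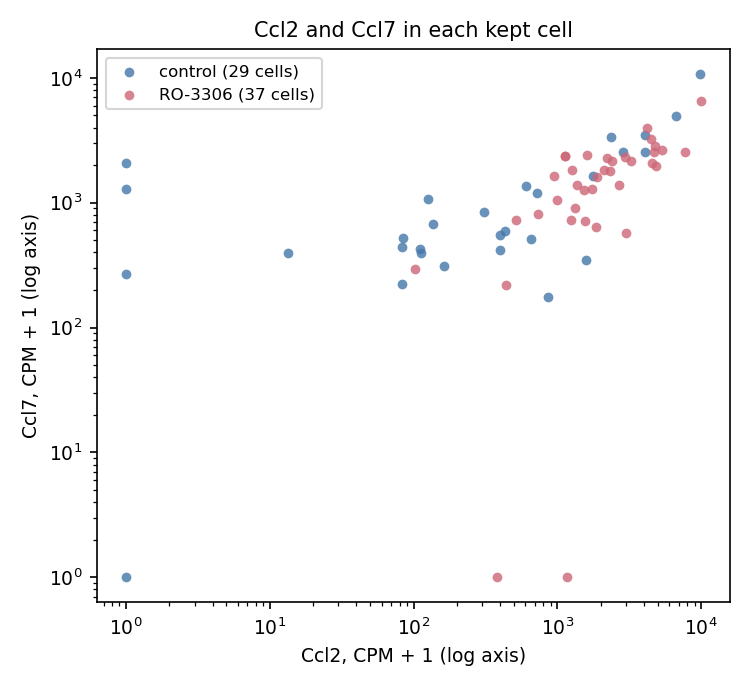
Ccl7 (y axis) against Ccl2 (x axis) in each kept cell, both as CPM + 1 on log axes, for 29 control and 37 RO-3306 cells. Control cells spread from no count to 9865 CPM of Ccl2 and 10651 CPM of Ccl7, and 30 of the 37 RO-3306 cells have at least 1000 CPM of Ccl2.

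The sequences just before the start of Cxcl1, Cxcl12 and Mmp3 are shown because these 3 members passed the bound on share of cells or on level. They are the 250 bases before the start in RefSeq (build GRCm38.p6, an older one than that of the counts), 5′ to 3′ on the gene's strand: chr5:90890995-90891244, chr6:117168285-117168534 and chr9:7445572-7445821, all on the plus strand. Capitals mark matches to any of 5 motifs searched on both strands. They were the 10-base kappaB consensus of NF-kB and the AP-1 motif, spelled TGANTCA. The C/EBP motif was taken as TTGCNNAA and the TATA box as TATAAA. The GC box, the motif of Sp1, was GGGCGG.
Cxcl1: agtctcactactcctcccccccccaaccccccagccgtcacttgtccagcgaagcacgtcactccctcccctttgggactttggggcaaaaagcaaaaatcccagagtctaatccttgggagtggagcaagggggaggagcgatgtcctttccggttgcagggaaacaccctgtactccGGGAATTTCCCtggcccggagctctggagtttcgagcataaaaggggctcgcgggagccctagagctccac
Cxcl12: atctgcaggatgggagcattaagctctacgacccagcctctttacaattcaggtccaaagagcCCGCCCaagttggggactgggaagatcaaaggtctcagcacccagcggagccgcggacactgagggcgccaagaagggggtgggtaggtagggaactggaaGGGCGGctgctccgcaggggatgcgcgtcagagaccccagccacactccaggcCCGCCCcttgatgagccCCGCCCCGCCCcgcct
Mmp3: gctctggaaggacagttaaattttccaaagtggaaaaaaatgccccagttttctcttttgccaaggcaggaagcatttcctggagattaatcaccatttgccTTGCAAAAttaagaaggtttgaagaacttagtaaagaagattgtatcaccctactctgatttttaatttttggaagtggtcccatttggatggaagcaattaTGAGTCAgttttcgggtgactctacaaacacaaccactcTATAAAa

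The Cxcl1 window holds 2 kappaB matches that overlap on opposite strands, 71 to 61 bases before the start, and none of the other motifs. Such a match is in 3.90% of 32851 promoter windows of the same length. The Cxcl12 window holds 5 matches to the GC box, 2 of which overlap, and none of the other 4 motifs, and a GC box is in 32.7% of all windows. The Mmp3 window holds 1 AP-1 match (46 to 40 bases before the start) and 1 C/EBP match. It also holds 1 match to the TATA letters, 7 to 2 bases before the start. Matches to these motifs, in that order, are in 6.75%, 9.56% and 12.4% of all windows. Of the other members in that table, Il6 had kappaB, AP-1 and C/EBP matches, Csf1 a kappaB match and GC boxes, Lif an AP-1 match and Igfbp3 none. Matches are letters in a window and were not tested as binding sites. Ccl2, Ccl7 and Cxcl5 are not in the table used.

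Cxcl1 (chromosome 5, 91039104 to 91040980, plus strand), a neutrophil attractant, was found in more cells after RO-3306. Shares of cells were taken after drawing 639000 reads at random from each cell, which left 25 control and 34 RO-3306 cells. Cxcl1 then had a count in 14 of 25 control cells (56%, 34.9% to 75.6%) and in 31 of 34 after RO-3306 (91.2%, 76.3% to 98.1%). The difference was 35.2 points, against 31.2 points with another random draw, 32.2 points when 5 counts were asked for and 36.7 points at full depth. The intervals cover counting error over these cells and say nothing of other cultures. A rise of at least 25 points was counted in 1 of the 7 measured members, Cxcl1, and in 19.1% of all genes. A drop as large was counted in 0 of the 7 and in 0.832% of all genes. Both counts were partly fixed in advance. In control Ccl2, Ccl7, Cxcl5 and Cxcl12 were at 88% or more and could not rise by 25 points. Lif at 12% and Mmp3 at 0% in control could not drop by as much. The median equally deep cell had a count in 4576 genes in control and in 5958 genes in RO-3306, and the part of that in the Cxcl1 shares was not tested.

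The Cxcl1 level was less clear than its share. Summed, it was 522.8 CPM in control and 593.2 CPM after RO-3306, a log2 ratio of 0.18. Single cells ran from 0 through a median of 19.2 to 3611 CPM in control and from 0 through 216.8 to 3038 CPM in RO-3306. The upper ends overlap, with 6 control and 7 RO-3306 cells at 1000 CPM or more, while 13 control cells and 3 RO-3306 cells had no count. The log2 ratio was -0.83 in set A, 0.38 in set B, 2.99 in set C and 0.83 in set D, and it was -0.16 without set C.

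**Figure D4:**
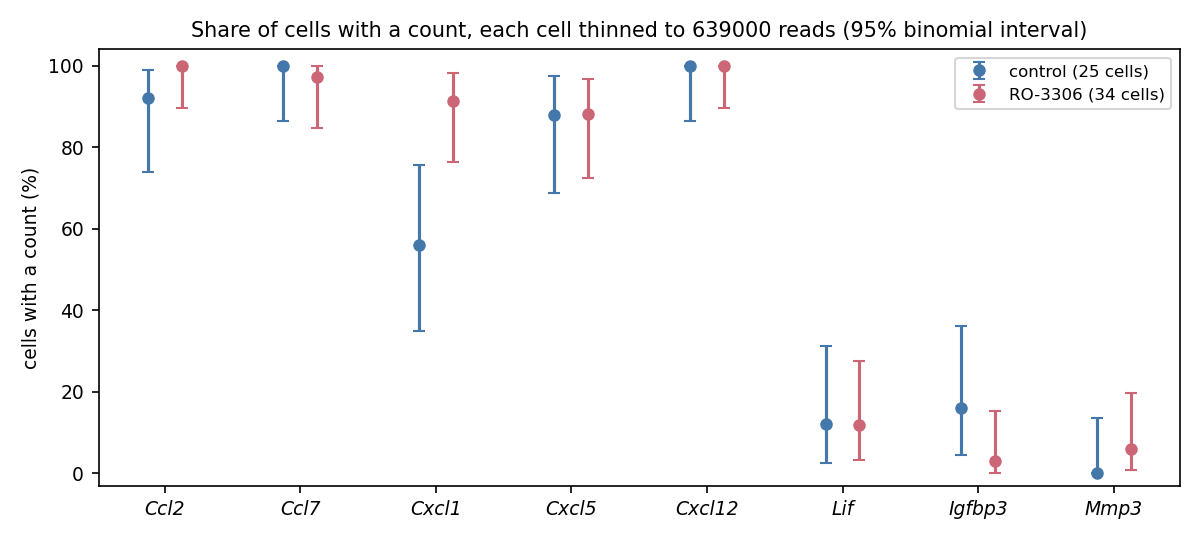
Share of cells with a count (y axis, %) for the 8 members with counts, each cell thinned to 639000 reads, as points with 95% Clopper-Pearson intervals, for 25 control and 34 RO-3306 cells. Cxcl1 stands at 56% and 91.2%, and the other chemokines at 88% or more in both groups.

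Cxcl5 (chromosome 5, 90907157 to 90909484, plus strand), the other neutrophil attractant, lies 129619 nt from Cxcl1. It had 601.4 CPM in control and 420.2 CPM after RO-3306, a log2 ratio of -0.52. Its single cells ran from 0 through 442 to 2618 CPM in control and from 0 through 260.3 to 2148 CPM in RO-3306, overlapping over most of their range. Its share of equally deep cells was 88% (22 of 25) and 88.2% (30 of 34). Sets A and B were lower in RO-3306 (-0.56 and -1.82) and sets C and D higher (0.23 and 0.64), and without set B the log2 ratio was -0.02. Its counts were fractional in 53 of the 67 libraries that had any, so some of its reads also match another place in the genome. The other chemokines had fractional counts too, in 11 of 55 libraries for Cxcl1, 25 of 75 for Ccl2, 24 of 78 for Ccl7 and 35 of 78 for Cxcl12.

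Cxcl1 and Cxcl5 were also compared from cell to cell. Over 25 control cells the Spearman coefficient was 0.68, and over 34 RO-3306 cells it was 0.26, or 0.65 and 0.34 within lettered sets, and the difference was not tested. Of the control cells, 14 had both, 8 had Cxcl5 alone, none had Cxcl1 alone and 3 had neither. Of the RO-3306 cells, 27 had both, 3 had Cxcl5 alone and 4 had Cxcl1 alone. The genes most like Cxcl1 were Lbp, which binds bacterial lipopolysaccharide (0.35 and 0.32), Atg101 of the autophagy machinery (0.32 and 0.39) and Tbc1d7 of the TSC complex (0.41 and 0.31). Those most like Cxcl5 were Sh3gl1, an endophilin (0.61 and 0.44), Pcolce, an enhancer of procollagen processing (0.47 and 0.42), and Slpi, a secreted protease inhibitor (0.45 and 0.42).

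Cxcl12 (chromosome 6, 117145496 to 117158329, plus strand), made by stromal cells in many tissues, had 3233 CPM in control and 1345 CPM after RO-3306. The ratio was 0.416 (0.413 to 0.419), which is 2.40-fold lower, or -1.26 on the log2 scale. Single control cells ran from 46.3 through a median of 2870 to 7750 CPM, and RO-3306 cells from 0 through 926 to 4440 CPM. The groups overlap, but 1000 CPM was reached in 26 of 29 control cells and in 14 of 37 after RO-3306. All equally deep cells of both groups had a count (25 of 25 and 34 of 34), so the groups differed in level per cell while their shares were alike.

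Cxcl12 was the one measured member with the same sign in all 4 lettered sets, as were 23.3% of all genes. Control and RO-3306 sums were 3264 and 1219 CPM in set A, 3137 and 933.2 CPM in set B, 3062 and 1787 CPM in set C, and 3649 and 1255 CPM in set D. Their log2 ratios were -1.42, -1.75, -0.78 and -1.54. No single cell carried the sums over all sets, the top cell holding 8.91% in control and 12.5% in RO-3306. Within set C, however, cell C7, at 7750 CPM, held 56% of the control counts. The top control cell held 20.1%, 23.5% and 36.6% in sets A, B and D. Whether set C keeps its sign without C7 was not tested. The median cell of set C stood at 2132 CPM untreated, against 890.6 CPM after RO-3306. The spread over cells went the other way from that of Ccl2, with a coefficient of variation of 0.578 in control and 0.804 in RO-3306.

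The Cxcl12 message is long, at 5627 nt for its longest transcript in GENCODE M21, and long messages tended to be lower in RO-3306. The tenth of genes with the longest messages had a median log2 ratio of -0.86 and the tenth with the shortest had 0.25. Relative to genes of like length Cxcl12 was at -0.44, which is not past the fold. That value rests on the longest transcript, and which transcripts the cells made was not measured. Of 8 fibroblast markers 6 were measured and 4 were lower past the fold, 2 of them in all 4 sets, beside 24.2% of all genes. These 2 were collagen chains. Col1a1 went from 714.2 to 127.1 CPM and Col3a1 from 603.1 to 83.6 CPM, while the proteoglycan Dcn was at 834 and 873.1 CPM. Also lower past the fold were Pdgfrb (35.8 and 0.496 CPM) and Pdgfra (25.9 and 8.17 CPM). Pdgfrb had counts in 7 control and 2 RO-3306 cells, and Pdgfra in 6 and 8. The part of these in the Cxcl12 difference was not tested. Dcn was also the gene most like Cxcl12 from cell to cell (0.48 in control and 0.59 in RO-3306), followed by the histone acetyltransferase Hat1 (0.45 and 0.48) and the tetraspanin Tspan4 (0.43 and 0.44).

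**Figure D5:**
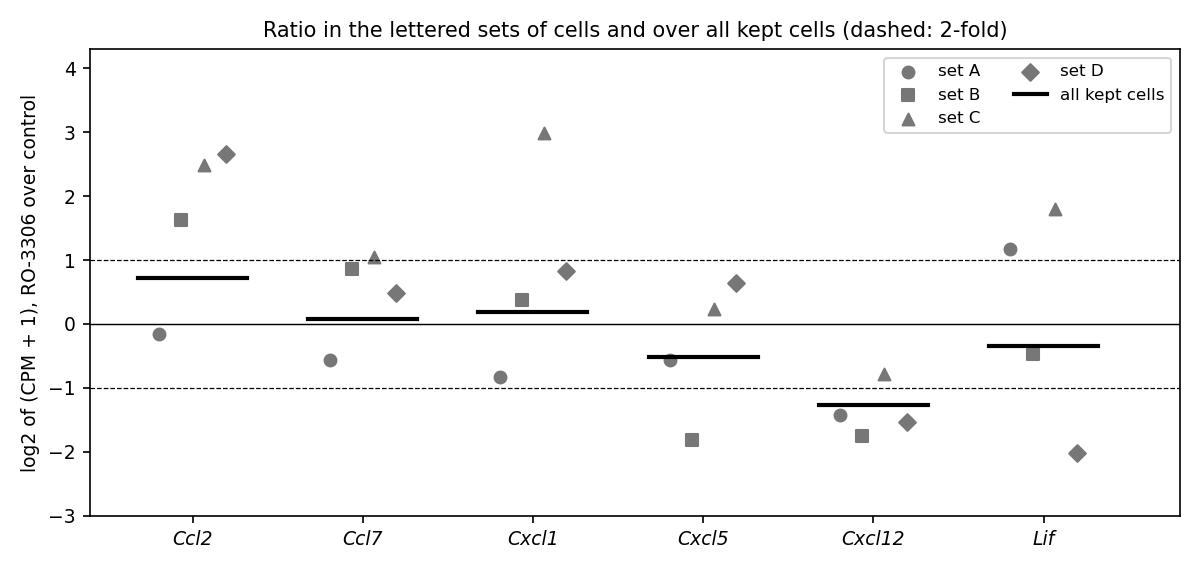
Log2 ratio of RO-3306 over control (y axis, CPM + 1) within each lettered set (symbols) and over all kept cells (bars) for 6 members, with dashed lines at 2-fold. The 4 sets of Cxcl12 all lie below 0, from -1.75 to -0.78, and every other member has sets on both sides of 0.

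Per kilobase of message, taken as the longest transcript of each gene, the order of the chemokines differed between the groups. Which transcripts the cells made was not measured, and places in the order depend on the lengths taken. In control it was Ccl7 (1915 CPM per kb), Ccl2 (1428), Cxcl12 (574.5), Cxcl5 (322.8) and Cxcl1 (279.4). In RO-3306 it was Ccl2 (2364 CPM per kb), Ccl7 (2015), Cxcl1 (317), Cxcl12 (239) and Cxcl5 (225.5). The ranges of neighbours in these orders overlap from cell to cell. The 10 members together made up 7468 CPM in control and 6581 CPM after RO-3306. The median equally deep cell had a count for 5 members in both groups, and at least 5 members were found in 15 of 25 control and 27 of 34 RO-3306 cells.

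Lif, a cytokine of the Il6 family, was rare. It lies on chromosome 11 from 4207568 to 4222514 on the plus strand. It had 7.69 CPM in control from 5 of 29 cells and 5.81 CPM after RO-3306 from 7 of 37 cells, a log2 ratio of -0.35. Its share at equal depth was 12% (3 of 25) and 11.8% (4 of 34). The highest cells had 120.1 CPM in control and 182.4 CPM after RO-3306, and the ratio had either sign among the sets (1.18, -0.47, 1.80 and -2.01).

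Igfbp3, which binds insulin-like growth factors, lies on chromosome 11 from 7156086 to 7165498 on the minus strand. It had 4.61 CPM in control from 4 cells and 1.10 CPM after RO-3306 from 2 cells, below the minimum for a call. Cell B4 held 92.1% of the control counts and cell D2 98% of the RO-3306 counts. Those cells also held the most counts of other members: B4 of Cxcl1 and Cxcl5 in control, and D2 of Ccl2, Cxcl5 and Lif in RO-3306. By CPM, other cells were higher than B4 for Cxcl1 and Cxcl5, and other cells were higher than D2 for Ccl2 and Lif. B4 was the deepest control library, with 6457215 counts.

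Mmp3, or stromelysin-1, cuts proteoglycans and other matrix proteins, and lies on chromosome 9 from 7445822 to 7455975 on the plus strand. It had no count in 29 control cells (an interval up to 0.0559 CPM) and 10.8 CPM in RO-3306. A floor of 3 counts over the control group would be 0.0454 CPM, and summed RO-3306 was 237-fold above that floor. With 1 CPM added, the log2 ratio was 3.56. The counts came from 2 of 37 cells, and cell C8, which was also the highest RO-3306 cell for Cxcl1, held 86.1% of them. At equal depth the shares were 0 of 25 (an interval up to 13.7%) and 2 of 34 (5.88%, 0.720% to 19.7%). Without C8 the log2 ratio was 1.36.

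Il6, the best known senescence cytokine, and Csf1, the growth factor of macrophages, had 0 counts in all 96 libraries, but these zeros are no measurement. The span of Il6 (chromosome 5, 30218112 to 30224973, plus strand) lies wholly inside that of A230098N10Rik (30209393 to 30238645). That of Csf1 (chromosome 3, 107648364 to 107668048, minus strand) lies wholly inside Gm40121 (107603945 to 107719262). Of the 7471 genes whose span is inside another, 7471 (100%) had no count in any kept cell, against 43.3% of the other 32731 genes. Neither expression nor its absence can be read for these genes.

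Messages for most receptors of the members were scarce in these cells, and receptor protein was not measured. Ccr1, Ccr2, Cxcr1, Cxcr4, Ackr1 and Ackr2 had no count in kept cells. Of 15 receptors 4 were measured and 1 was lower past the fold, beside 24.2% of all genes. It was Lifr, the receptor of Lif, at 117.9 CPM in control and 47 CPM after RO-3306 (-1.31). Sets A (0.12) and C (1.96) went the other way, and Lifr was not past the fold without set B, with per-cell means, with thinning or relative to genes of like message length. Ackr3, which takes up Cxcl12, had 18.8 and 22.2 CPM. Of 28 other chemokines 3 were measured and 1 was higher past the fold, beside 12.2% of all genes. That was Ppbp, another Cxcr2 ligand, with 0 and 14.7 CPM from 3 RO-3306 cells, and like Mmp3 it was measured only through the group in which it is high. Ccl9 had 70.7 and 70.6 CPM.

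Other secreted factors moved in both directions. Of 25 cytokines and growth factors 12 were measured, 2 higher past the fold and 4 lower, beside 12.2% and 24.2% of all genes. Gdf15, a stress cytokine, had 0.0757 CPM in control and 14.3 CPM after RO-3306, with counts in 1 and 10 cells and a higher value in all 4 sets, and it too was measured only through its RO-3306 level. Ereg, a ligand of the epidermal growth factor receptor, had 6.998 and 28.34 CPM. The Ereg log2 ratio was -1.15 in set D, and the top cell held 69.4% of its counts in control and 53.5% in RO-3306. Il33 (66.3 and 18.1 CPM), Tgfb2 (69.8 and 19.3 CPM) and Hbegf (31.1 and 7.40 CPM) were lower in the sums, Tgfb2 alone in all 4 sets. Il33 was higher in set C (3.87), and Hbegf in sets A and C (0.29 and 0.16). The top control cell held 52.4% of the control counts of Il33 and 55.3% of those of Hbegf. Mif, an abundant cytokine, had 1308 and 2142 CPM, with a positive ratio in all 4 sets (0.71 on the log2 scale overall) but not past the fold.

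Relatives of Igfbp3 and Mmp3 were measured in more cells. Of 6 other Igf binding proteins 3 were measured, 1 higher and 1 lower past the fold, beside 12.2% and 24.2% of all genes. Igfbp4 had 585.9 CPM in control and 291.3 CPM after RO-3306 (-1.01), and Igfbp6 had 52.9 and 108.9 CPM (1.03). Neither changed sign among the 4 sets, but both lie close to the fold. Both counts were 0 without set B, with a pseudocount of 5 CPM and relative to genes of like message length. The lower count was also 0 with TMM or DESeq2 factors and without set C. The higher count was also 0 with per-cell means, with thinning and without set A. Igfbp7 had 287.5 and 305.8 CPM. Of 16 other matrix proteases and inhibitors 6 were measured, 2 higher and 2 lower past the fold, beside 12.2% and 24.2% of all genes. Plaur, the urokinase receptor, had 48.9 and 148.9 CPM (1.59) and the lysosomal protease Ctsb 415.8 and 952.3 CPM (1.19), both higher in all 4 sets. Mmp2 (60.5 and 18.6 CPM) and Plat, tissue plasminogen activator (47.1 and 8.33 CPM), were lower in the sums but not in every set. Timp1 and Timp3, the inhibitors of matrix metalloproteases, lie inside other genes and could not be read.

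The NF-kB genes gave no common direction. Of 21 subunits, regulators and targets 19 were measured, 3 higher past the fold and 4 lower, with a median log2 ratio of -0.40, beside 12.2% and 24.2% of all genes. The lower count was 2 with DESeq2 factors and 0 relative to genes of like message length. Ikbkg, the regulatory subunit of the kinase that releases NF-kB, had 30.5 CPM in control and 110.2 CPM after RO-3306 (1.82), and the catalytic subunit Ikbkb 9.27 and 23.1 CPM (1.23), both higher in all 4 sets. Nfkb1, which encodes the p50 subunit, had 85.4 and 41.7 CPM (-1.02) and was lower in all 4 sets; it is outside the naming rule and was named after its values were seen. Ptgs2 (76.4 and 27.9 CPM), Rel (9.21 and 2.91 CPM) and Nfkbiz (61.5 and 25.8 CPM) were lower in the sums, with mixed signs among sets. Rela, the main activating subunit, had 114 and 143.4 CPM and the inhibitor Nfkbia 160 and 120.9 CPM, neither past the fold.

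Genes of C/EBP and of the signalling path that Il6 and Lif use were counted next. Of 12 genes 10 were measured, 0 higher and 4 lower past the fold, with a median log2 ratio of -0.63, beside 12.2% and 24.2% of all genes. Relative to genes of like message length, 1 was higher and 1 lower. Socs3, a feedback inhibitor induced by Stat3, had 38.2 CPM in control and 6.25 CPM after RO-3306 (-2.43). The kinases Jak1 (112.3 and 43.2 CPM) and Jak2 (135.9 and 53.0 CPM) and Stat3 itself (76.7 and 31.9 CPM) were lower too, Jak1 alone in all 4 sets. Cebpb, a driver of Il6 in senescent cells, had 915.1 and 870.8 CPM. Of 9 senescence markers 6 were measured, 1 higher and 1 lower past the fold, beside 12.2% and 24.2% of all genes. Cdkn1a, the inhibitor p21, was higher (78.9 and 286.9 CPM, 1.85) and the proliferation marker Mki67 lower (105.3 and 12.5 CPM, -2.98), each in all 4 sets. Trp53, Hmgb1 and Hmgb2 were among those not past the fold, and Cdkn2b lies inside another gene and could not be read. Cdkn2a, which encodes p16, had 0.0303 CPM in control and none in RO-3306. Markers of macrophages, which make and answer these chemokines, together had 58.5 CPM in control and 64.7 after RO-3306, and Tyrobp and Cx3cr1 had no count. Most of these sums was Cd14 (26.4 and 45.3 CPM) and Lyz2 (29.5 and 15.8 CPM), which went in opposite directions. Ptprc had 0 and 0.129 CPM and Adgre1 0.0151 and 0 CPM.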

How the data were processed

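Expected counts per gene were deposited by the authors for each of 96 single-cell libraries. Per the file headers, the authors made them with featureCounts 2.0.3 on the RefSeq annotation of GRCm39, over whole gene spans, splitting a read that maps to several places into fractions. The headers set no strand or overlap option. By the tool's defaults, reads over more than 1 gene are dropped and strand is ignored. The submitters' processing notes name STAR and FastQC, and versions are not given in the sources used here. Without molecular identifiers, PCR copies are counted too. A count was called fractional when over 1e-06 from a whole number.

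For intervals, thinning and scaling factors, fractions were rounded to whole counts. Counts of kept cells were summed by treatment and scaled to CPM. The log2 ratio carries a pseudocount of 1 CPM, which understates the change of low genes. Intervals are exact Poisson for sums and Clopper-Pearson for shares, at the 95% level. A floor is 3 counts. Thinning to 639000 reads took percentile 10 of kept totals, rounded down. Doublets were not called, since 1 cell was sorted per well. Only as alternatives, R 4.3.3 gave TMM factors (edgeR 4.0.16) and size factors (DESeq2 1.42.0). Other steps used Python 3.11.15, numpy 2.4.6, pandas 2.3.3, scipy 1.17.1 and matplotlib 3.10.9. mRNA lengths, each that of a gene's longest transcript, came by symbol from GENCODE M21 and were found for 97.2% of the 9374 measured genes. Promoter sequences came from a RefSeq table on GRCm38.p6, which holds 7 of the 10 members. The sum, ratio and call were tested on simulated cells.

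The members and the 13 other gene lists were chosen with earlier results of these data known. Named genes are all members, up to 5 genes of each list with the largest ratio past the fold, genes of at least 50 CPM needed to show what did not pass, and the 3 genes most like each member. Other lists' genes named at or near 0, and Cd14 and Lyz2, were chosen after their values were seen. Alternatives were scaling, pseudocount, weighting of cells, depth, filters, lettered sets, top cells, message length, fold and thinning seed.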

Additional observations from a re-analysis of the deposited data

Results flagged for a closer look

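Cxcl5 had counts in libraries that the filter left out. The 11 RO-3306 libraries below the filter held 142 Cxcl5 counts, or 122.1 CPM (102.9 to 144), and the 19 control libraries below it held 3, or 8.79 CPM (1.81 to 25.7). It is listed because this signal lies in data outside the comparison and above the level of the left-out control libraries. Library D3 held 133 of the 142 counts. The cause was not tested.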

How the results depend on the processing

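Over 48 results and 621 alternatives, 463 values stayed within the tolerance, 158 moved and 0 reversed a called sign. The count of higher members (1) became 2 without set A, where Ccl2 joined Mmp3. It became 0 with per-cell means, with thinning, without set C and with a minimum of 50 CPM, the settings that take Mmp3 below the minimum. The count of lower members (1) became 2 with thinning (Lif) or with no minimum (Igfbp3), and 0 relative to genes of like length and at 4-fold. Over all genes, those higher numbered 2339 with no minimum, 268 at 50 CPM and 390 at 4-fold, and those lower 533 at 50 CPM, 714 at 4-fold and 1400 relative to genes of like length. Ccl2, Cxcl5, Cxcl12 and Mmp3 kept their sign in all 14 alternatives of each. The Ccl2 log2 ratio ranged from 0.33 to 1.72, Cxcl5 from -0.84 to -0.02, Cxcl12 from -1.53 to -0.44 and Mmp3 from 1.36 to 6.76. Ccl7 ranged from -0.28 to 0.69, Cxcl1 from -0.16 to 0.70, Lif from -1.33 to 0.13 and Igfbp3 from -2.54 to 0.62. Each changed sign in 1 to 3 alternatives, and the cause was not tested. No paired analysis was possible because cells are not replicates and no result comes from a test.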

Other observations

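Libraries below the filter together held 341166 counts in 19 control and 1162603 in 11 RO-3306 libraries. What set them apart from the kept libraries was not tested. Ccl2 had 324 counts in the control libraries, 301 of them in A6, and 268 in the RO-3306 libraries, 190 of them in D10. Ccl7 had 18 and 50 counts, Cxcl12 had 17 and 36, and Cxcl1 had 3 and 14. Lif had 1 count in RO-3306, and Igfbp3 and Mmp3 had none. Relative to the totals, Ccl2 stood at 949.7 and 230.5 CPM, and the kept sums were 1565 and 2591 CPM. Ccl7 stood at 52.76 and 43.01 CPM and Cxcl12 at 49.83 and 30.97 CPM, and the kept sums were 1534 and 1614 CPM for Ccl7 and 3233 and 1345 CPM for Cxcl12.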
